A study of Mus musculus with 6 samples.

Results

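The Toll-like receptor genes Tlr1 to Tlr9 and the adaptor gene Myd88 were taken by name, and all 10 were found among the 20687 mouse gene symbols of the deposited transcript table. The study set 3 KP lung samples against 3 samples of the KP cell line, whose genotype and clonal origin the labels do not give. KP lung means lung of mice that had received 100000 KP cells through the tail vein 28 days before harvest. The lungs were dissociated with collagenase, the tissue was pooled from 3 mice, and 3 independent experiments were made; the labels leave unclear how mice map to samples. The line was extracted in triplicate, with nothing said of separate cultures, so its spread may be technical. Strain C57BL/6 is given for both groups, and age for neither. Lung without KP cells is not part of the comparison, and whole lung mixes host and tumour cells, so a difference cannot be assigned to either. In bulk RNA, fewer cells of a type and less RNA per cell cannot be told apart.

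Toll-like receptors are membrane proteins that recognise conserved microbial molecules and some molecules released from damaged cells. Tlr1, Tlr2, Tlr4, Tlr5 and Tlr6 act at the cell surface on bacterial lipoproteins, lipopolysaccharide or flagellin, whereas Tlr3, Tlr7, Tlr8 and Tlr9 sense nucleic acids in endosomes. All except Tlr3 signal through Myd88, which recruits Irak kinases and leads to activation of NF-kB and of interferon regulatory factors. In lung, macrophages, neutrophils, dendritic cells and B cells are known to carry these receptors, and epithelial cells carry some of them.

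Tlr1 and Tlr6 are neighbours on chromosome 5 and share sequence, so the split of reads between them is uncertain. Of the 31-base words in Tlr1 transcripts, 18.3% also occurred in Tlr6, and 16.4% of the words of Tlr6 occurred in Tlr1. Tlr2, Tlr3, Tlr5, Tlr7, Tlr8 and Tlr9 shared 0 words with any other gene, and Tlr4 shared 0.162%. The longest identical coding run of Tlr1 and Tlr6 is shown because a read inside it can be placed in neither gene by sequence alone. It spans 229 bases, coding positions 1468 to 1696 of 2388 in Tlr1 and 1507 to 1735 of 2421 in Tlr6, in GENCODE M21 transcripts of build GRCm38.
Tlr1 and Tlr6 shared run: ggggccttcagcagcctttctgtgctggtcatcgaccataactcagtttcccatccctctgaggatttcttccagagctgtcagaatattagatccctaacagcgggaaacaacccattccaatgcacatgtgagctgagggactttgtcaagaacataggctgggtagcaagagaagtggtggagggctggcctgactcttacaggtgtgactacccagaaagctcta

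RefSeq promoter windows of build GRCm38.p6, from 250 bases before to 50 after the gene start, matched 8 of the 10 genes, all but Tlr4 and Tlr7. These genes had 10 windows, with 2 each for Tlr1 and Tlr6. Matches of the members are counted by gene below, and those of all windows by window. Both strands were searched for 4 motifs. GAGGAA, a PU.1-type ETS core, was found in the windows of 3 genes (Tlr1, Tlr8 and Tlr9) and in 28.3% of all 32851 windows. The core of the interferon-stimulated response element (GAAA, any 2 bases, GAAA) was found in 2 genes (Tlr6 and Myd88) and in 3.44% of all windows. An NF-kB-type motif (GGGA, any 4 bases, CC) was found in 3 genes (Tlr2, Tlr3 and Tlr5) and in 20.7% of all windows, and the AP-1 motif TGANTCA in 1 gene (Tlr9) and in 7.81%. A match describes the letters only. The windows of Myd88 (chr9:119339969-119340268, minus strand) and Tlr9 (chr9:106222348-106222647, plus strand) are shown, as those of the called genes with the smallest differences described below, with motif matches in capitals.
Myd88: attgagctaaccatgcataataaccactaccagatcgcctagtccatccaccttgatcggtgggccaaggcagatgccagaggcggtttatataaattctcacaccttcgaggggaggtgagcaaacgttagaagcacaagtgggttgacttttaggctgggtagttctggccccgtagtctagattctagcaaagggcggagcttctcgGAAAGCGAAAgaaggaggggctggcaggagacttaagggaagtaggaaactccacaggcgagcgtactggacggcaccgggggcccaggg
Tlr9: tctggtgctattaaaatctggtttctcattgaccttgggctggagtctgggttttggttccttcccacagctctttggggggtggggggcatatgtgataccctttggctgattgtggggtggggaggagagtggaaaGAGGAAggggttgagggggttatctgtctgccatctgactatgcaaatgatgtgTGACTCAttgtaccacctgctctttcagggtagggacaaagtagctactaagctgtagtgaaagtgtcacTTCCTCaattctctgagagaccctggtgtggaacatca

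Libraries held 17786758 to 22862396 estimated counts, and 3 counts, the limit set by a count of 0, equalled 0.132 to 0.169 CPM, the unit of counts scaled to a common library size. Cell line replicate 1 and lung replicate 2 stood apart from their groups. Pearson's r of log2 CPM lay between 0.908 and 0.965 for pairs that held either of them, against 0.980 for lung replicates 1 and 3 and 0.991 for cell line replicates 2 and 3. The epithelial markers Epcam, Krt8, Krt18, Krt19 and Cdh1 all reached 1 CPM in every cell line library, though Epcam stood at 52.0 ± 6.53 CPM in lung and only 2.5 ± 0.549 CPM in the line (mean ± SD, n = 3 each, as throughout). RNA of Ptprc, the common leukocyte antigen, was seen in every library. Ptprc stood at 247, 173 and 265 CPM in lung replicates 1, 2 and 3 and at 44.8, 36.4 and 22.8 CPM in cell line replicates 1, 2 and 3. The source of this RNA in the line was not tested.

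Of the 10 genes, 9 were higher in KP lung than in the KP line, 0 were lower, and Tlr4 did not pass the test. The quasi-likelihood F test of edgeR was used, with p adjusted over all 15212 tested genes and a threshold of 0.05. Among all tested genes 48.8% were called, 31.3% higher and 17.5% lower. All 10 genes passed the filter on low counts. DESeq2 and limma-voom also gave 0 lower, as did an unadjusted p below 0.05. The median log2 difference was 3.09 over the 10 genes and 0.08 over all tested genes. Groups did not overlap in 9 of the 10 genes, all higher in lung; among all tested genes this held for 62.2%, 35.6% higher and 26.6% lower.

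**Figure D1:**
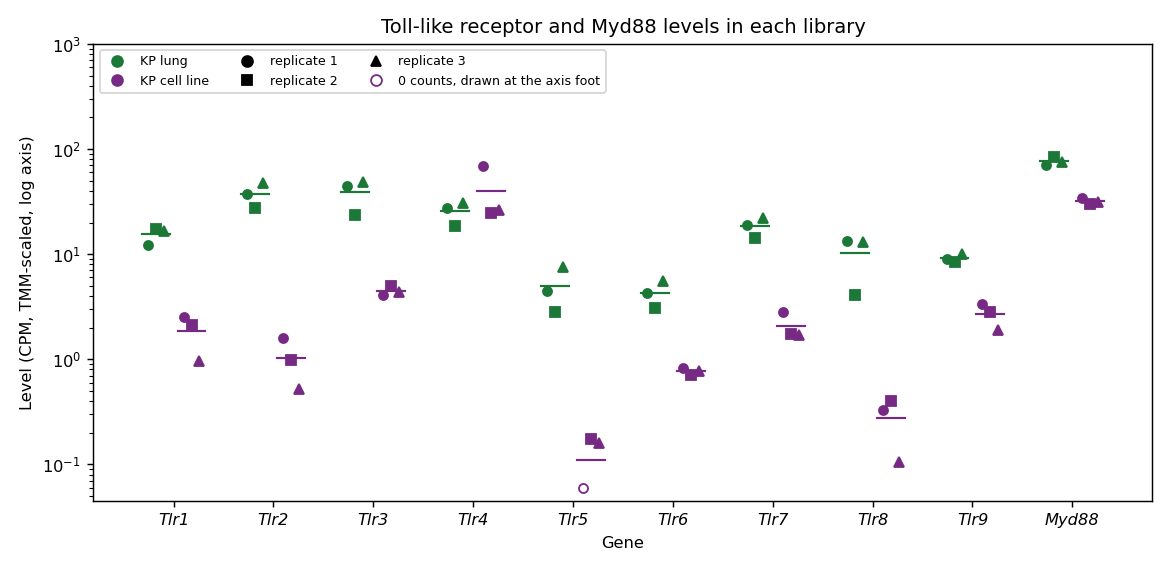
Level of each gene (x axis) in CPM on a log axis (y axis), with 3 KP lung libraries (green) left of 3 KP cell line libraries (purple), a symbol for each replicate and a line at the group mean. The groups are apart for every gene except Tlr4, whose cell line replicate 1 stood at 68.9 CPM while its other libraries lay between 18.7 and 30.8 CPM; the open symbol for Tlr5 marks 0 counts.

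**Figure D2:**
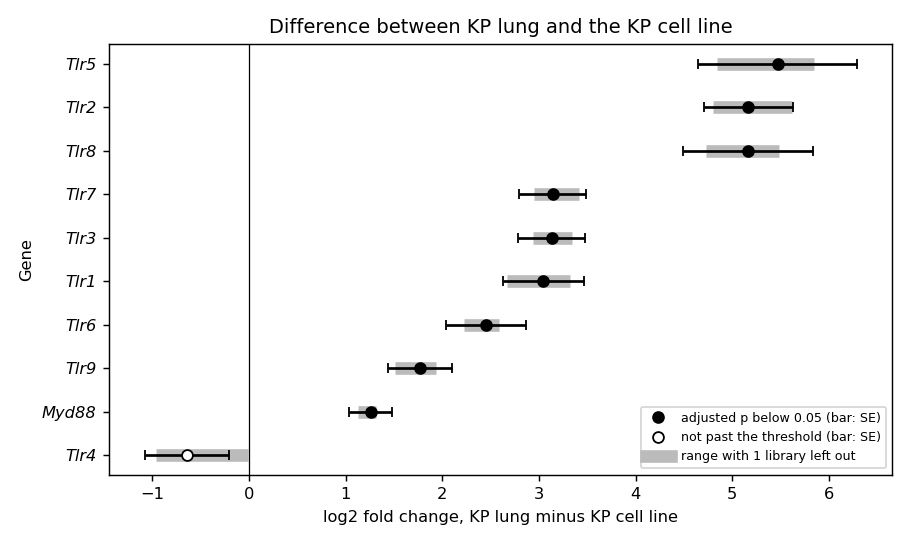
Log2 difference, KP lung minus KP cell line (x axis), of each gene (y axis) from edgeR with its SE as a bar, filled where the adjusted p was below 0.05, and in grey the range over fits without 1 library. The range of Tlr4 runs from -0.97 to -0.01, and those of the other 9 genes lie right of 0.

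Tlr2, which binds bacterial lipoproteins together with Tlr1 or Tlr6, stood at 37.2, 27.5 and 47.5 CPM in lung replicates 1, 2 and 3, against 1.59, 0.979 and 0.527 CPM in cell line replicates 1, 2 and 3. Its lowest lung library was far above its highest cell line library (log2 difference 5.16 with SE 0.46, edgeR-adjusted p = 7.43e-05). Its partner Tlr1 stood at 12.2, 17.5 and 16.7 CPM in lung, against 2.54, 2.12 and 0.966 CPM in the line. Here lung replicate 2 was the highest library and the groups again did not overlap (log2 difference 3.04 with SE 0.42, edgeR-adjusted p = 0.000579). Tlr6, the other partner, stood at 4.23, 3.07 and 5.52 CPM in lung, against 0.823, 0.703 and 0.773 CPM in the line. Its values were low in both groups and even in the line, with no overlap (log2 difference 2.45 with SE 0.42, edgeR-adjusted p = 0.00159).

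Tlr5, the flagellin receptor, had the fewest counts in the line of the 10 genes. Lung replicates 1, 2 and 3 stood at 4.47, 2.79 and 7.58 CPM, from 112, 63.0 and 146 counts. Cell line replicates 1, 2 and 3 stood at 0, 0.173 and 0.158 CPM, from 0, 3 and 3 counts, at or under the limit of 3 counts. The fitted value is imprecise (log2 difference 5.47 with SE 0.82, edgeR-adjusted p = 0.000892) and was 4.84 without cell line replicate 1. It was the largest of the 10 in the fit of all libraries, but not without that library, where Tlr2 stood at 5.62 and Tlr8 at 5.30.

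Tlr4, the lipopolysaccharide receptor, stood at 27.3, 18.7 and 30.8 CPM in lung replicates 1, 2 and 3, against 68.9, 24.8 and 26.4 CPM in cell line replicates 1, 2 and 3. The groups overlapped, and cell line replicate 1 was alone at the top (log2 difference -0.65 with SE 0.43, edgeR-adjusted p = 0.249). Without that library the log2 difference was -0.01 (edgeR-adjusted p = 0.973). For Tlr4, cell line replicate 1 was 2.69 times the mean of cell line replicates 2 and 3, the largest such ratio of the 10 genes, against 1.13 for Myd88 and 0.887 for Tlr3. As a log2 deviation from cell line replicates 2 and 3, that library stood at 1.41 for Tlr4, against a median of 0.02 over all tested genes.

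The endosomal receptors were all higher in lung. Tlr3, which binds double-stranded RNA and signals through Ticam1, stood at 45.0, 23.3 and 48.9 CPM in lung, against 4.11, 4.95 and 4.32 CPM in the line. Lung replicate 2 was well below the other lung libraries, and the line was even (log2 difference 3.13 with SE 0.35, edgeR-adjusted p = 0.000193). Tlr7, a receptor for single-stranded RNA, stood at 18.8, 14.2 and 22.1 CPM in lung, against 2.8, 1.73 and 1.69 CPM in the line, and the groups were clearly apart (log2 difference 3.14 with SE 0.35, edgeR-adjusted p = 0.000197). Tlr8, its neighbour on the X chromosome and an RNA sensor in human cells, stood at 13.4, 4.08 and 13.0 CPM in lung, against 0.327, 0.403 and 0.105 CPM in the line. Lung replicate 2 was again the lowest lung library but above every cell line library (log2 difference 5.16 with SE 0.67, edgeR-adjusted p = 0.000438). Tlr9, the receptor for DNA with unmethylated CpG, stood at 8.95, 8.46 and 9.97 CPM in lung, against 3.33, 2.81 and 1.9 CPM in the line. Its lung values were even, the groups did not overlap, and the difference was the smallest of the 8 called Tlr genes (log2 difference 1.76 with SE 0.33, edgeR-adjusted p = 0.00269).

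Lung replicate 2 was the lowest lung library for 8 of the 9 Tlr genes, all but Tlr1, and for 55.1% of all tested genes. Its log2 deviation from lung replicates 1 and 3 was -1.58 for Tlr8, -0.99 for Tlr3, -0.95 for Tlr5 and -0.15 for Tlr9. The median deviation was -0.22 over all tested genes, -0.46 over the 3393 tested genes in the length range of the Tlr genes, and 0.18 over the 1560 within 10% of the length of Myd88, with Myd88 itself at 0.20. The part of transcript length in these lung values was not tested. Without lung replicate 2 the log2 difference was 5.49 for Tlr8 and 3.34 for Tlr3.

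Myd88 was the most abundant of the 10 genes in lung and the one with the smallest difference among those called. It stood at 70.5, 83.5 and 74.9 CPM in lung replicates 1, 2 and 3, against 34.6, 29.8 and 31.2 CPM in cell line replicates 1, 2 and 3. Both groups were even and did not overlap (log2 difference 1.26 with SE 0.22, edgeR-adjusted p = 0.00196). Of its 31-base words, 7.66% also occur in Acaa1a, a peroxisomal thiolase gene, on the opposite strand. Acaa1a stood at 116, 151 and 119 CPM in lung, against 107, 69.4 and 71.8 CPM in the line. Its groups did not overlap either, higher in lung, but it did not pass the test (log2 difference 0.64 with SE 0.27, edgeR-adjusted p = 0.0833). The library kit keeps strand, per the labels, but whether counting used it is unknown, so reads of the overlap may not be told apart.

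Levels of different genes were compared per length, in TPM, which scale the estimated counts by transcript length and library. In lung Myd88 came first at 74.5 ± 9.77 TPM, clear of Tlr2 at 24.9 ± 10.4 TPM. Then came Tlr3 at 21.2 ± 10.3, Tlr4 at 12.7 ± 5.07, Tlr1 at 10.6 ± 2.12, Tlr7 at 9.91 ± 3.74, Tlr8 at 6.36 ± 3.9, Tlr9 at 5.15 ± 1.34, Tlr5 at 3.26 ± 2.0 and Tlr6 at 2.39 ± 1.04 TPM. From Tlr2 down, each gene overlapped the next in range. In the line Myd88 stood at 30.4 ± 2.48 and Tlr4 at 18.6 ± 11.7 TPM, with overlapping ranges. Tlr4 was clear of Tlr3 at 2.23 ± 0.216 TPM, and Tlr3 of Tlr9 at 1.45 ± 0.399 TPM. Then came Tlr1 at 1.26 ± 0.552, Tlr7 at 1.05 ± 0.327, Tlr2 at 0.644 ± 0.336, Tlr6 at 0.401 ± 0.0328, Tlr8 at 0.158 ± 0.0880 and Tlr5 at 0.0665 ± 0.0578 TPM. Among these only Tlr6 was clear of the next.

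The make-up of the Tlr pool differed between the groups. Tlr4 held 13.6%, 13.0% and 12.9% of the summed TPM of the 9 Tlr genes in lung replicates 1, 2 and 3, against 78.9%, 60.3% and 68.7% in cell line replicates 1, 2 and 3. Every cell line library was far above every lung library in this share. A share also depends on the other Tlr genes, and the level of Tlr4 itself overlapped between groups. It was 14.4, 6.99 and 16.7 TPM in lung and 32.2, 11.5 and 12.2 TPM in the line. Tlr2 held 24.8%, 25.8% and 26.7% in lung, against 2.44%, 3.19% and 1.84% in the line, the opposite order. Tlr9 held 5.17%, 6.86% and 4.85% in lung, against 4.43%, 7.93% and 5.75% in the line, and the groups overlapped. The sum itself was 106, 53.6 and 129 TPM in lung and 40.8, 19.1 and 17.7 TPM in the line.

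**Figure D3:**
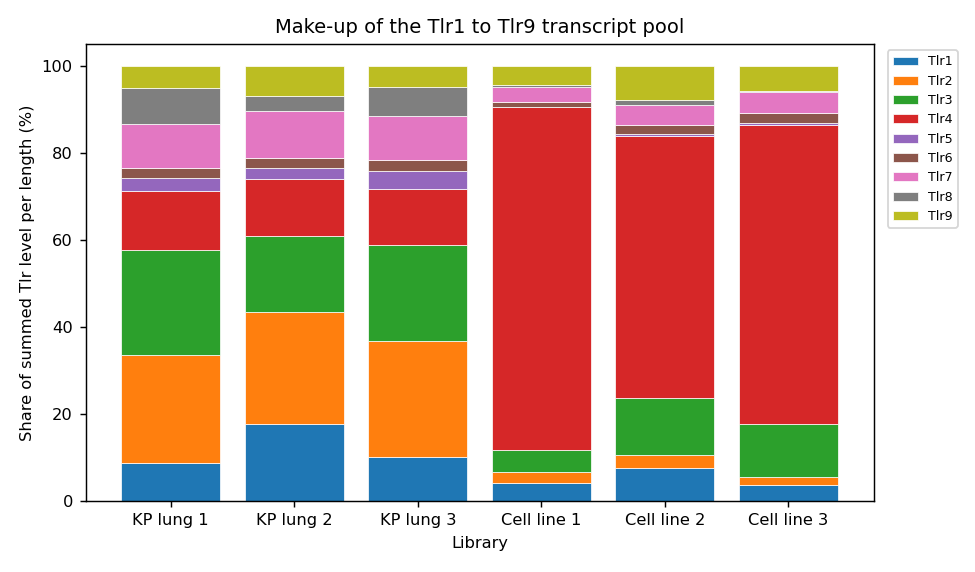
Share of the summed TPM of Tlr1 to Tlr9 (y axis, percent) held by each gene (colours) in each of 3 KP lung and 3 KP cell line libraries (x axis). Tlr4 holds between 12.9% and 13.6% in lung and between 60.3% and 78.9% in the line, while its own TPM overlapped between the groups.

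The mean cell line level of each gene, as a percentage of its mean lung level, was set beside that of leukocyte marker lists. Over 9 such lists the summed level in the line lay between 0.554% of lung for alveolar macrophages and 31.4% for B cells. Tlr2, Tlr5 and Tlr8 stood at 2.76%, 2.23% and 2.74%, beside macrophages and monocytes at 2.67%, or 1.14% without Mrc1, and neutrophils at 1.84%. Tlr1, Tlr3 and Tlr7 stood at 12.1%, 11.4% and 11.3%, with Ptprc at 15.2%, T cells at 9.74%, conventional dendritic cells at 9.69%, plasmacytoid dendritic cells at 8.08% and NK cells at 7.84%. Tlr6 stood at 17.9% and Tlr9 at 29.3%. Myd88 at 41.8% and Tlr4 at 156% were the 2 genes above every leukocyte list. Of 65 leukocyte markers, 3 lay above Myd88 (Mrc1, Eomes and Cr2) and none above Tlr4.

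B cell markers summed to 216, 406 and 276 CPM in lung replicates 1, 2 and 3 and to 114, 106 and 61.6 CPM in cell line replicates 1, 2 and 3, with all 10 at 1 CPM or more in every cell line library. Macrophage and monocyte markers summed to 6988, 9282 and 7456 CPM in lung and to 137, 261 and 235 CPM in the line, where 9 of 12 reached 1 CPM in every library. Mrc1, the gene of a mannose receptor, was the 1 marker of the 12 that did not pass the test as higher in lung, at 119, 47.4 and 127 CPM in lung and 31.3, 163 and 173 CPM in the line. Without it, a choice made after its values were seen, the sums were 6869, 9234 and 7329 CPM in lung and 106, 98.4 and 62.6 CPM in the line, where replicate 3 was then the lowest. Neutrophil markers summed to 207, 357 and 275 CPM in lung and to 6.26, 5.47 and 3.74 CPM in the line, where 0 of 10 did. In these 3 lists 0 markers lacked counts in all cell line libraries.

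Between cell line replicates 3 and 2, the pair most alike, the ratio of levels was 0.579 for B cells, 0.576 for T cells, 0.625 for Ptprc, 0.586 for plasmacytoid and 0.692 for conventional dendritic cells, 0.684 for neutrophils and 0.803 for alveolar macrophages. It was 0.8999 for the full macrophage and monocyte list or 0.636 without Mrc1, and 0.924 for NK cells or 0.682 without Eomes. Both markers were picked by their values, as the highest of their lists in the line against lung. The ratio was 1.05 for Myd88, with a 95% exact binomial interval of 0.928 to 1.18 that covers counting error only, and 1.06 for Tlr4 (0.933 to 1.21). For Tlr3 it was 0.872 (0.637 to 1.19). The intervals of Myd88, Tlr4 and Tlr3 lay above the ratios of B cells, T cells and Ptprc, narrowly so for Tlr3. The NK cell ratio of 0.924 lay just under the lower limits of 0.928 for Myd88 and 0.933 for Tlr4. The interval of Tlr3 included the ratios of neutrophils, alveolar macrophages, conventional dendritic cells, NK cells and the full macrophage and monocyte list. The marker ratios carry an error of their own, which was not computed, and this pair differed beyond sampling noise (chi-square per gene 2.91). For Myd88, Tlr4 and Tlr3 no separation was therefore read. The ratio was 0.445 for Tlr1 (0.238 to 0.802), 0.538 for Tlr2 (0.220 to 1.24) and 0.672 for Tlr9 (0.425 to 1.05), and these intervals included the ratios of B cells, T cells and Ptprc. For Tlr7 it was 0.976 (0.574 to 1.66), which included those of B cells, T cells and Ptprc too. The part of leukocyte RNA in the Tlr and Myd88 levels of the line was not tested.

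**Figure D4:**
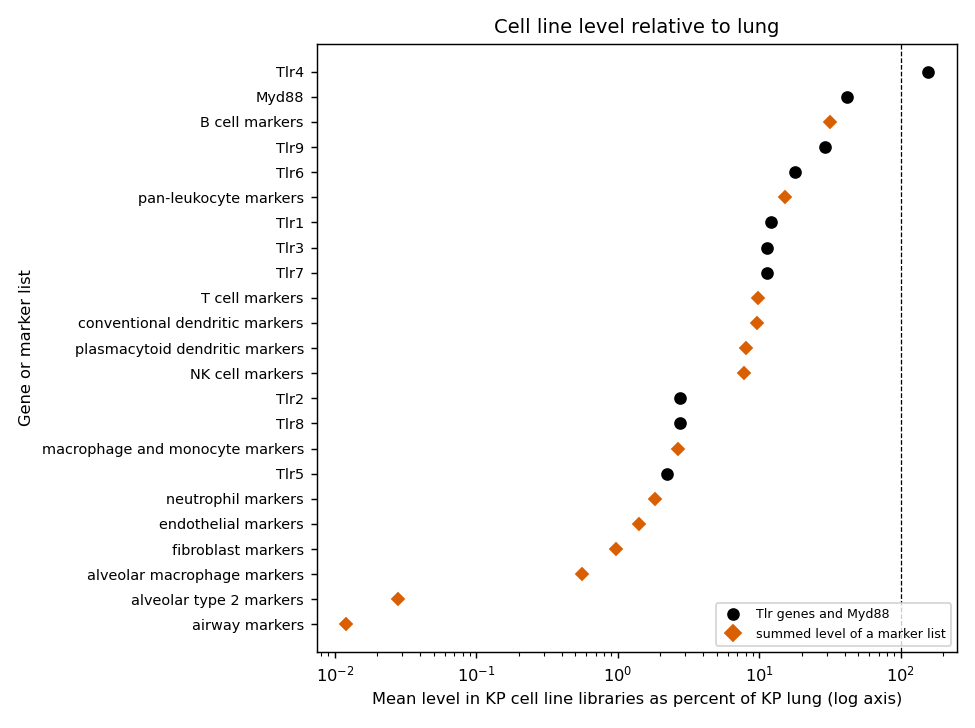
Mean level in the KP cell line as a percentage of the mean level in KP lung (x axis, log scale) for each Tlr gene and Myd88 (black circles) and for the summed level of marker lists (orange diamonds), with a dashed line at equal levels. Tlr4 at 156% and Myd88 at 41.8% lie above the B cell list at 31.4%, and Tlr2, Tlr5 and Tlr8 lie beside the macrophage and monocyte list, which is drawn at 2.67% and would be at 1.14% without Mrc1. The value of Tlr4 is raised by cell line replicate 1.

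Tlr2 and Tlr9 had 1 annotated transcript each. For Tlr4, transcript ENSMUST00000048096 held 99.8%, 100.0% and 99.8% in lung replicates 1, 2 and 3 and 99.3%, 96.8% and 97.1% in cell line replicates 1, 2 and 3. The protein-coding Myd88 transcript ENSMUST00000035092 held 97.0%, 99.2% and 95.9% in lung and 98.4%, 99.1% and 98.9% in the line, and a transcript with a retained intron held the rest. Both genes were thus almost wholly 1 transcript in every library. Tlr3 had 8 transcripts, and ENSMUST00000209772 held 28.0%, 0% and 40.7% of it in lung and 84.9%, 43.1% and 31.4% in the line. Shares of Tlr1, Tlr3, Tlr7 and Tlr8 transcripts moved this widely between replicates, so no difference in transcript use was read from them. For Tlr5, ENSMUST00000110997 held 95.3%, 92.1% and 97.0% in lung replicates 1, 2 and 3, and 0 counts in the line. The 0, 3 and 3 counts of Tlr5 in the line were all on ENSMUST00000193687, which had 0 counts in lung. They are too few to read a difference from.

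The other mouse receptors Tlr11, Tlr12 and Tlr13 were all higher in lung (3 of 3). Tlr13, which senses bacterial ribosomal RNA, stood at 18.3 ± 6.77 in KP lung and 1.15 ± 0.274 CPM in the line (log2 difference 3.99 with SE 0.41, edgeR-adjusted p = 0.000134). Tlr12 and Tlr11, which bind profilin of protozoa, stood at 6.47 ± 0.805 in KP lung and 0.425 ± 0.118 CPM in the line and at 3.88 ± 0.0469 in KP lung and 0.702 ± 0.256 CPM in the line.

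Of 4 further adaptors with a TIR domain, 1 rose, 1 fell and 2 missed the threshold. Ticam2, which links Tlr4 to Ticam1, stood at 9.11, 7.83 and 11.8 CPM in lung, against 0.653, 0.496 and 0.263 CPM in the line (log2 difference 4.30 with SE 0.45, edgeR-adjusted p = 0.000142). Sarm1, an NAD-cleaving enzyme, was low in both groups, at 0.478 ± 0.109 in KP lung and 2.28 ± 0.564 CPM in the line (log2 difference -2.24 with SE 0.46, edgeR-adjusted p = 0.00407). Tirap, the bridge of Tlr2 and Tlr4 to Myd88, stood at 25.7 ± 9.76 in KP lung and 41.6 ± 7.59 CPM in the line (log2 difference -0.69 with SE 0.34, edgeR-adjusted p = 0.126). Ticam1 stood at 18.7, 16.4 and 21.1 CPM in lung, against 25.6, 10.9 and 10.2 CPM in the line (log2 difference 0.26 with SE 0.39, edgeR-adjusted p = 0.601). Without cell line replicate 1, its highest library, Ticam1 rose by 0.81 (edgeR-adjusted p = 0.0263).

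Of 6 co-receptors and ligand carriers, 5 rose. Cd36, a scavenger receptor that assists Tlr2, stood at 731 ± 235 in KP lung and 5.53 ± 1.37 CPM in the line (log2 difference 7.05 with SE 0.45, edgeR-adjusted p = 2.85e-05). Ly86 and Cd180, which form a complex, stood at 60.7 ± 27.7 in KP lung and 2.91 ± 0.881 CPM in the line and at 22.3 ± 3.0 in KP lung and 4.19 ± 2.0 CPM in the line. Ly96, the MD-2 subunit that binds lipopolysaccharide with Tlr4, stood at 4.4, 6.72 and 4.79 CPM in lung, against 7.98, 4.95 and 4.37 CPM in the line, and like Tlr4 it overlapped between groups (log2 difference -0.12 with SE 0.36, edgeR-adjusted p = 0.797). Cd14, which hands lipopolysaccharide to Tlr4, stood at 89.4 ± 25.8 in KP lung and 48.2 ± 2.11 CPM in the line (log2 difference 0.89 with SE 0.27, edgeR-adjusted p = 0.0240), and missed the threshold when either of cell line replicates 2 and 3 was left out (edgeR-adjusted p = 0.117 and 0.109). Lbp, a carrier of lipopolysaccharide, stood at 119 ± 24.5 in KP lung and 25.0 ± 27.2 CPM in the line (log2 difference 2.25 with SE 0.71, edgeR-adjusted p = 0.0301). Without cell line replicate 1 its difference was 3.66, and without any other 1 library it missed the threshold (edgeR-adjusted p 0.0530 to 0.0856).

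Of 4 genes for receptor folding and transport, 2 rose. Unc93b1, which carries the nucleic acid receptors to endosomes, stood at 115, 123 and 132 CPM in lung, against 14.8, 10.9 and 5.9 CPM in the line (log2 difference 3.55 with SE 0.37, edgeR-adjusted p = 0.000149). Cnpy3, a co-chaperone, stood at 54.3 ± 5.07 in KP lung and 33.4 ± 6.11 CPM in the line (log2 difference 0.70 with SE 0.24, edgeR-adjusted p = 0.0410), and missed the threshold without lung replicate 1 or 3 or either of cell line replicates 2 and 3 (edgeR-adjusted p 0.0840 to 0.211). Hsp90b1, the chaperone that folds most of these receptors, stood at 738, 326 and 680.3 CPM in lung, against 3549, 829.7 and 875 CPM in the line. Cell line replicate 1 was the high library, as for Tlr4, and the gene did not pass the edgeR test (log2 difference -1.59 with SE 0.63, edgeR-adjusted p = 0.0695). Its log2 difference was -0.56 without that library (edgeR-adjusted p = 0.273). It passed when cell line replicate 2 or 3 was left out (edgeR-adjusted p = 0.0366 and 0.0456) and by DESeq2 (adjusted p = 0.0125). Slc15a4, an endosomal transporter, stood at 28.3 ± 0.754 in KP lung and 35.2 ± 16.1 CPM in the line (log2 difference -0.31 with SE 0.33, edgeR-adjusted p = 0.463).

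Of 11 genes of the Irak, Traf and Tak1 steps below Myd88, 1 rose, 1 fell and 9 missed the threshold. DESeq2 and limma-voom each called 1 higher and 2 lower, scaling by library size alone 1 higher and 0 lower, and the fit without lung replicate 2 and cell line replicate 1 together 3 higher and 6 lower. Without lung replicate 2 alone, 1 was higher and 2 lower. Peli1, a ubiquitin ligase, stood at 57.4 ± 16.3 in KP lung and 25.8 ± 2.09 CPM in the line (log2 difference 1.16 with SE 0.28, edgeR-adjusted p = 0.0102), and missed the threshold without cell line replicate 2 (edgeR-adjusted p = 0.0611). Tab3, a Tak1 partner, stood at 16.7 ± 6.47 in KP lung and 37.0 ± 2.04 CPM in the line (log2 difference -1.14 with SE 0.33, edgeR-adjusted p = 0.0221), and missed it without cell line replicate 3 (edgeR-adjusted p = 0.0560) and by library size alone (0.0606). Of 8 genes of the NF-kB arm, edgeR called 0, also 0 at an unadjusted p below 0.05, and DESeq2 and limma-voom called 0 after adjustment. Their median log2 difference was 0.00. Without lung replicate 2 edgeR called 1 of the 8 higher (Rel), and without cell line replicate 1 or by library size alone also 1 (Relb). Without both of these libraries it called 3 of the 8 higher (Nfkb1, Relb and Rel). These 3 were named after their values were seen.

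Of 5 genes of the interferon regulatory arm, 4 rose. Irf7, which carries Tlr7 and Tlr9 signals to interferon genes, stood at 81.0, 146 and 87.4 CPM in lung, against 5.0, 2.82 and 1.58 CPM in the line (log2 difference 5.06 with SE 0.50, edgeR-adjusted p = 0.000118). Irf5, which acts with Myd88, stood at 49.5, 75.2 and 59.9 CPM in lung, against 4.3, 4.67 and 1.79 CPM in the line (log2 difference 4.10 with SE 0.42, edgeR-adjusted p = 0.000132). Irf3, a factor downstream of Ticam1, stood at 64.0 ± 6.18 in KP lung and 39.7 ± 5.5 CPM in the line, and missed the threshold without any 1 library other than lung replicate 2 (edgeR-adjusted p 0.0624 to 0.155). Ikbke, a kinase gene, stood at 22.5 ± 7.2 in KP lung and 9.88 ± 3.33 CPM in the line, and missed it without lung replicate 1 or 3 or either of cell line replicates 2 and 3 (edgeR-adjusted p 0.0609 to 0.105). Tbk1, a related kinase gene, stood at 46.0 ± 11.3 in KP lung and 44.5 ± 1.87 CPM in the line (log2 difference 0.05 with SE 0.26, edgeR-adjusted p = 0.893).

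Of 7 negative regulators, 2 rose, 1 fell and 4 missed the threshold. By library size alone 0 fell, without cell line replicate 1 the number was 2 (Sigirr and Tnfaip3), and by DESeq2, or without lung replicate 2 and cell line replicate 1 together, it was 3 (Sigirr, Tnfaip3 and Cyld), with Tnfaip3 and Cyld named after their values were seen. Nfkbia, the inhibitor of NF-kB and a target of it, stood at 94.7 ± 12.9 in KP lung and 30.6 ± 3.8 CPM in the line (log2 difference 1.63 with SE 0.24, edgeR-adjusted p = 0.000788). Irak3, an inhibitory member of the Irak family, stood at 8.75 ± 1.55 in KP lung and 1.44 ± 0.562 CPM in the line (log2 difference 2.59 with SE 0.40, edgeR-adjusted p = 0.000977). Sigirr, an inhibitory receptor, stood at 31.3 ± 7.3 in KP lung and 58.9 ± 2.04 CPM in the line (log2 difference -0.91 with SE 0.25, edgeR-adjusted p = 0.0165), and missed the threshold without lung replicate 1 or 3 (edgeR-adjusted p = 0.0812 and 0.0655), by library size alone (0.0509) and with at least 10 counts in all libraries (0.0589).

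Of 7 tested target genes, 5 rose, 1 fell and 1 missed the threshold. Il1b, the gene of interleukin-1 beta, stood at 25.5, 53.3 and 33.5 CPM in lung, against 0.560, 0.288 and 0.105 CPM in the line (log2 difference 6.82 with SE 0.58, edgeR-adjusted p = 6.16e-05), with a difference of 7.54 without cell line replicate 1. Il12b, a subunit of interleukin-12, stood at 2.26 ± 0.201 in KP lung and 0.0659 ± 0.0704 CPM in the line (log2 difference 4.93 with SE 0.73, edgeR-adjusted p = 0.000819), with values of 6.06 and 4.34 when cell line replicate 1 or 3 was left out. Ptgs2, the inducible cyclooxygenase, stood at 21.4, 9.33 and 27.5 CPM in lung, against 562, 983 and 989.6 CPM in the line (log2 difference -5.44 with SE 0.52, edgeR-adjusted p = 0.000102). It was the 1 target that fell.

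Of 5 other receptors that use Myd88, all of the interleukin-1 family, 4 rose. Il18r1, which binds interleukin-18, stood at 80.5 ± 37.8 in KP lung and 0.639 ± 0.222 CPM in the line (log2 difference 6.98 with SE 0.54, edgeR-adjusted p = 4.25e-05). Il1rap, the shared co-receptor, stood at 15.6 ± 7.94 in KP lung and 0.495 ± 0.341 CPM in the line (log2 difference 4.93 with SE 0.65, edgeR-adjusted p = 0.000478), with a difference of 5.65 without cell line replicate 1. Il1rl1, the receptor of interleukin-33, stood at 4.58 ± 2.44 in KP lung and 0.711 ± 0.394 CPM in the line. Il1r1, the receptor of interleukin-1, stood at 57.3 ± 22.0 in KP lung and 27.1 ± 3.09 CPM in the line, and missed the threshold without any 1 library other than lung replicate 2 (edgeR-adjusted p 0.0773 to 0.104). Il18rap stood at 28.3 ± 9.97 in KP lung and 35.4 ± 15.7 CPM in the line (log2 difference -0.32 with SE 0.43, edgeR-adjusted p = 0.563).

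**Figure D5:**
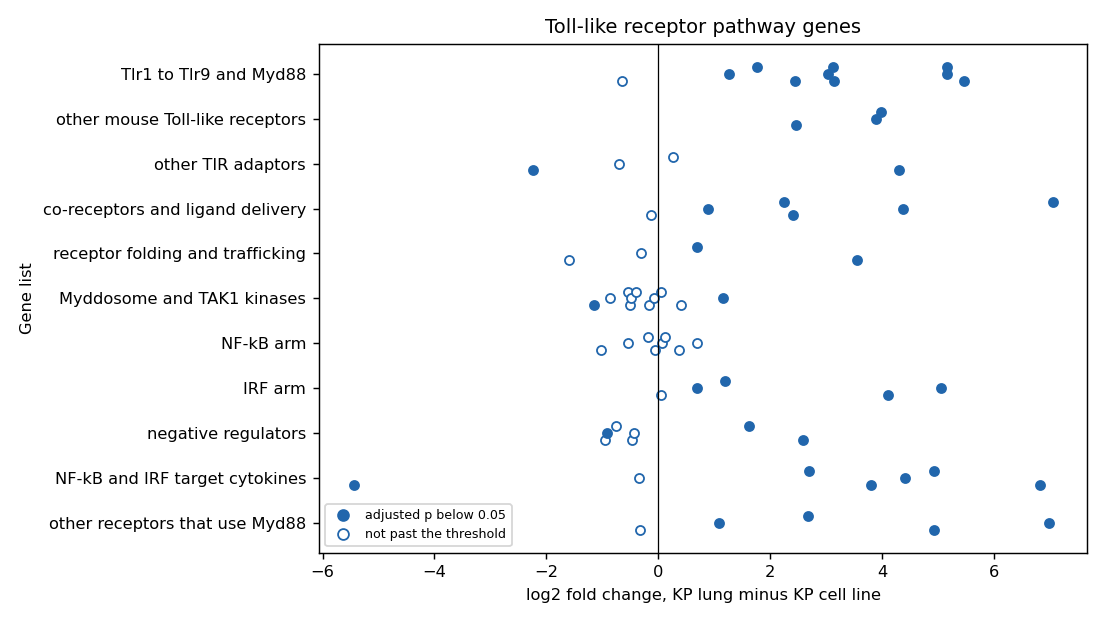
Log2 difference, KP lung minus KP cell line (x axis), of each tested gene in the Tlr and Myd88 list and 10 pathway lists (y axis), filled where the edgeR-adjusted p was below 0.05. The 9 called genes among Tlr1 to Tlr9 and Myd88 lie right of 0, and the 8 genes of the NF-kB arm are open points around a median of 0.00.

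The genes most like Myd88 and most like Tlr2, the Tlr gene with the highest TPM in lung, were named by Pearson's r of log2 CPM over the 6 libraries, among 10478 tested genes at a mean of 10 CPM or more. For Myd88 they were Tmem159, Nr1h3 and Cryab, at 0.9993, 0.9989 and 0.9986. For Tlr2 they were Entpd1, Myo1f and Abcg1, at 0.9997, 0.9997 and 0.9995. The libraries fall into 2 groups, and 1189 genes passed 0.95 for Myd88 and 1374 for Tlr2.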

How the data were processed

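The authors deposited 1 table of estimated counts per transcript for the 6 samples. The submitters' processing notes name Salmon 1.4.0, FastQC 0.11.9, DESeq2 1.32.0 and build GRCm39; annotation release, strand setting and the use made of DESeq2 are unknown here. The labels' protocols mention both a Nugen amplification and a stranded TruSeq mRNA kit. Transcripts were named with GENCODE M21, of build GRCm38, used for names and lengths only: 76521 of 76776 matched, and the rest held at most 0.416% of any library. Gene sums were rounded and fitted in edgeR 4.0.16 (TMM, filterByExpr, group as the term) with Benjamini-Hochberg adjustment; the script was tested on simulated data. Log2 differences are lung minus cell line, with the SE taken from the F statistic. TPM used the count-weighted transcript length. The members and lists were chosen with earlier results of these data known. Named were the 10 members, genes of lists of up to 6, and from longer lists the 2 called genes of largest change in the leading direction and the 1 in the other. Alternatives were other scalings (DESeq2 size factors, library size), other filters, DESeq2 1.42.0, limma-voom (limma 3.58.1), a 2-fold minimum, a replicate block, omitted libraries, and the longest transcript for TPM. Replicate libraries differed beyond sampling noise, with a chi-square per gene of 2.91 or more.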

Additional observations from a re-analysis of the deposited data

How the results depend on the processing

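Tlr1, Tlr2, Tlr3, Tlr5, Tlr6, Tlr7, Tlr8, Tlr9 and Myd88 stayed higher and past the threshold in all 133 results computed for them under 15 alternatives, with adjusted p up to 0.0246. The 2-fold minimum among these reused the reported fit. It could not move these genes, whose differences there were all above 2-fold. Tlr5 and Tlr8 drop out when at least 10 counts are asked of all 6 libraries. Tlr4 lay between -0.97 and -0.01 with 1 library left out and at 0.18 without lung replicate 2 and cell line replicate 1 together. Signs of uncalled genes turned for Ticam1 (-0.023 to 0.90 with 1 library or both of these left out), Ly96 (-0.39 to 0.17 likewise, 0.10 by library size, 0.072 with at least 10 counts), Slc15a4 (-0.57 to 0.13 likewise) and Tbk1 (-0.093 to 0.25 likewise, -0.025 with no filter). The causes were not tested. Scaling by library size called 5210 genes higher and 1728 lower, 75.1% higher against 64.1% as reported, and moved the median by 0.23. At least 10 counts in all libraries left 11994 genes, with 4256 called, 2555 higher and 1701 lower. Without both libraries named above 12082 were called, 6657 higher and 5425 lower. Ticam1 then passed as higher, and Tirap, Hsp90b1 and Il18rap as lower. Calls with 1 library left out ranged from 6080 to 8921, with 4249 to 5190 higher and 1820 to 3773 lower. Same-numbered libraries deviated with correlations of -0.04, 0.08 and -0.08. Whether libraries of the same number share an experiment or batch was not tested. With the replicate block 7160 genes were called, 4634 higher and 2526 lower, and 9 members were higher, with Tlr4 at -0.51; Cnpy3 and Irf3 missed the threshold and Hsp90b1 passed it. Depth limits Tlr5, Tlr6 and Tlr8 most, at fewer than 20 counts in each cell line library.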
